A study of Arabidopsis thaliana with 36 samples.

Results

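The early risers are 66 of the 22746 probe sets that are not array controls, chosen because their signal was higher after 3 long days than at day 0 in all 3 Arabidopsis lines of the study. The rule took the mean of 3 arrays of log2(signal + 16) for each line and day, and kept a probe set where day 3 minus day 0 was at least 0.6 in every line. The members were thus selected on the measured day 0 and day 3 signals, and those values are given as a description with no test. In single lines the same cut was passed by 196 probe sets in FRI flc-3 (0.862%), by 258 in flc-3 (1.13%) and by 114 in FRI (0.501%). An annotation table named 30 members to 1 gene, 1 to several genes and left 35 unnamed, which are given by their probe set identifier. The 30 named genes lay on all chromosomes, with 8 on chromosome 1, 4 on chromosome 2, 7 on chromosome 3, 6 on chromosome 4 and 5 on chromosome 5. 2 members, 265058_s_at and 267607_s_at, carry the array's suffix for probe sets that match several transcripts, so their signal may come from more than 1 gene.

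RNA of the apical region of soil-grown plants with 10 to 18 leaves was hybridised to 36 ATH1 arrays, after 0, 3, 5 or 7 long days that followed short days at 23 °C, with 3 replicates in each of 12 groups. FRI flc-3 (FLC-3 within the FRI-SF-2 line of COL) carries a fast neutron flc allele together with the FRIGIDA allele of the accession Sf-2 in Col, and is labelled as early flowering. The line flc-3 (FLC-3) carries the flc allele in Col-0 without that FRIGIDA allele. FRI (FRI-Sf-2 in Col) carries the FRIGIDA allele and is given no flc allele in the labels. All FRI plants were labelled vegetative, FRI flc-3 plants as in transition to flowering from day 3, and flc-3 plants as in transition at days 3 and 5 and on 1 of 3 arrays at day 7, while the other day 7 arrays of flc-3 were labelled vegetative. No plants kept in short days and no time of harvest are given, so the effect of long days and that of 3 to 7 days of added age cannot be told apart.

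In Arabidopsis, long days cause leaves to send a flowering signal to the shoot apex, where meristem identity genes then turn leaf production into flower production. FRIGIDA raises the level of FLOWERING LOCUS C (FLC), a MADS-box repressor that holds the apex vegetative. Loss of FLC lets the apex respond to long days even where FRIGIDA is active.

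The values were MAS5 signals, a linear brightness per probe set, and their 2% trimmed mean lay between 100.007 and 100.009 on the 36 arrays. FLC and FRIGIDA are not named in the annotation used here and were not checked. Of the meristem and leaf primordium markers, PHV and YAB3 were bright in all 12 groups (group means of 208.6 to 306) and LAS was weak (25.1 to 38.1), whereas CLV3, a marker of meristem stem cells, stayed dim (8.39 to 16.3). The root markers EXPA7 and EXPA18 were dim, and the summed signal of the flower markers UFO, AMS and SPL lay between 3.10 and 28.5 on single arrays. That sum differed by line at day 7, with 16.7 to 25.0 in FRI flc-3, 26.4 to 28.5 in flc-3 and 3.74 to 9.12 in FRI. At day 0 it was 3.10 to 8.81, 5.56 to 13.0 and 5.59 to 9.76 in the same order. The least typical array was FRI flc-3 day 0 replicate 3, whose mean correlation with its group was 0.985, and without it the rule found 68 probe sets, of which 63 are among the 66. Fewer cells of a type and less RNA per cell cannot be told apart in these bulk samples.

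By day 3 the median member was 0.97 above day 0 on the log2 scale in FRI flc-3, 1.11 in flc-3 and 0.83 in FRI. The day 3 arrays lay above the day 0 arrays without overlap in every line for all 66 members. The rule had used these same arrays, so nothing is read from this separation. By mean difference over the lines, the top members were the unnamed 258497_at, with differences of 2.30, 1.97 and 1.502 in FRI flc-3, flc-3 and FRI, and AT4G33560, a wound-induced polypeptide family gene, with 1.92, 2.38 and 1.45. Members just inside the cut were 250972_at with 0.60 in flc-3, 250455_at with 0.60 in FRI and 265948_at with 0.61 in FRI flc-3. Just outside were 258596_at with 0.59, 255506_at with 0.59 and 245998_at with 0.58, all in FRI. At day 0, 13 of the 66 members had a mean below 22.4, the average 40th percentile of the arrays, so the size of their log2 differences depends on the offset of 16.

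At day 5, 62 of 66 members were at least 0.6 above day 0 in FRI flc-3, 63 in flc-3 and 61 in FRI, where 2.09%, 3.26% and 1.79% of all probe sets were. At day 7 the counts were 58, 57 and 61, against 3.69%, 4.08% and 1.40% of all probe sets. Since the members had low day 0 values by choice, these counts share arrays with the rule and nothing is read from them. The median difference to day 0 was 1.34 at day 5 and 1.43 at day 7 in FRI flc-3. It was 1.64 and 1.49 in flc-3, and 1.28 and 1.18 in FRI, while the median over all probe sets stayed between -0.03 and 0.01. In all 3 lines at once, 57 members were still 0.6 above day 0 at day 5 and 55 at day 7, out of 186 and 176 probe sets that were so placed at those days.

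**Figure D1:**
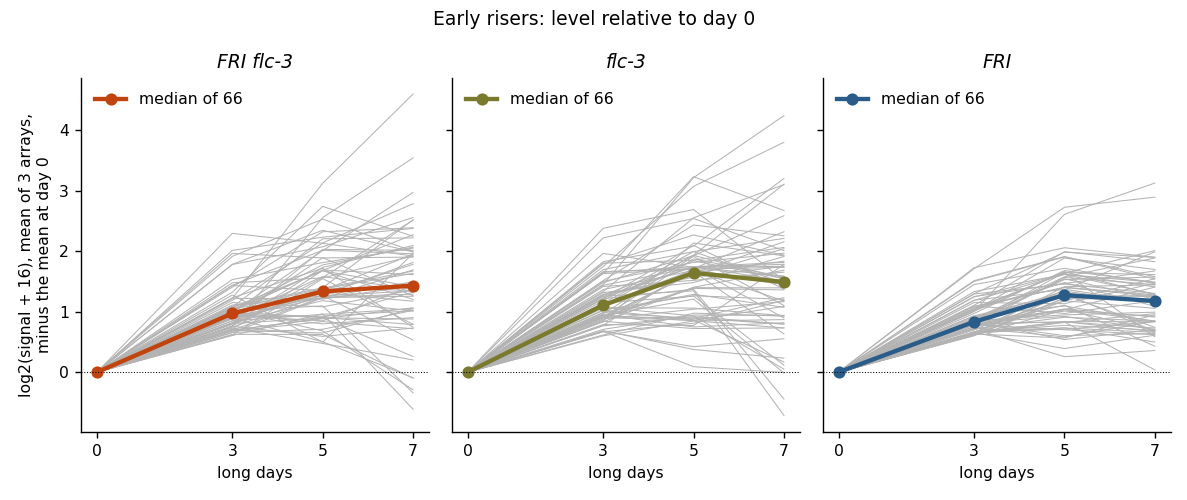
Mean log2(signal + 16) of 3 arrays minus the day 0 mean (y axis) against the number of long days (x axis) for the 66 early risers in FRI flc-3, flc-3 and FRI. Grey lines are single members and the coloured line is their median, which reached 1.43, 1.49 and 1.18 at day 7, and several members of FRI flc-3 and flc-3 drop to 0 or below between days 5 and 7.

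The courses divided by day 7. A member was classed as further where day 7 was at least 0.6 above day 3, as returned where it was under 0.3 above day 0, as part returned between 0.3 and 0.6, and as held otherwise. In FRI flc-3, 22 members went further, 36 held, 1 part returned and 7 returned. In flc-3 the numbers were 17, 40, 1 and 8, and in FRI they were 15, 46, 4 and 1. In all 3 lines 8 members went further and 29 held, and no member returned in all 3. Of the 29, 15 were not called for a change between day 5 and day 7 in any line. The share of all tested probe sets without such a call is not given here, and a missing call does not show a steady level. Among the 15 were AT5G22460, an alpha/beta hydrolase family gene, AT1G30820, which encodes a CTP synthase, and AT3G29240. AT1G30820 had 493, 479 and 489 units on the day 7 arrays of FRI flc-3, 440, 407 and 406 on those of flc-3 and 412, 442 and 450 on those of FRI, and its day 0 arrays lay between 221 and 282 in the 3 lines.

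Arrays of days 5 and 7 were not used to choose the members, so the change between these days was tested with limma over 14912 probe sets, and a member was called at a Benjamini-Hochberg adjusted p under 0.05. At day 7 against day 5, 22 members were called higher in FRI flc-3 (33.3% of 66, against 7.51% of all probe sets) and 17 were called lower (25.8%, against 7.52%). In flc-3, 12 were called higher (18.2%, against 4.61%) and 17 lower (25.8%, against 5.30%). In FRI, 5 were called higher (7.58%, against 0.691%) and 9 lower (13.6%, against 1.97%). Without FRI day 5 replicate 1 or FRI day 7 replicate 3, 3 were called higher in FRI (4.55%, against 0.322% and 0.382% of all probe sets). The share over all probe sets called higher in FRI was 0.208% in a fit to only the groups compared, with 4 members. The median change was 0.09 in FRI flc-3, -0.04 in flc-3 and -0.11 in FRI, beside -0.01, 0.01 and 0.01 over all tested probe sets. Whether the replicates are independent pools of plants is not stated, so the p-values cover the spread among these arrays, which may be technical.

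Calls of FRI flc-3 and flc-3, which share no arrays, overlapped, as did those of all tested probe sets. The fit gave all groups a common estimate of spread per probe set, so the calls of the lines are not independent. Of the members called higher, 10 were shared, 45.5% of the FRI flc-3 calls and 83.3% of the flc-3 calls. Over all tested probe sets 458 were shared, 40.9% of the FRI flc-3 calls and 66.7% of the flc-3 calls. Of the members called lower, 14 were shared, 82.4% of each, where over all tested probe sets 515 were shared, 45.9% of the FRI flc-3 calls and 65.2% of the flc-3 calls. No difference between these shares was tested. All 5 members called higher in FRI were also called higher in FRI flc-3, where over all tested probe sets 40 of 103 were (38.8%). The opposite directions met in 3 members, AT4G21870, AT1G43910 and the unnamed 257216_at, which were called higher in FRI flc-3 and lower in FRI, as were 27 of all tested probe sets. The call of AT1G43910 in FRI was lost without FRI day 7 replicate 3 (adjusted p = 0.072), and its call in FRI flc-3 without FRI flc-3 day 5 replicate 3 (adjusted p = 0.065), day 7 replicate 1 (adjusted p = 0.093) or day 7 replicate 2 (adjusted p = 0.057).

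4 members were called higher at day 7 than at day 5 in all 3 lines (6.06% of 66, against 21 of 14912 probe sets, 0.141%): THI2.1, JAL23, AT3G28500 and AT4G34400. THI2.1 encodes a thionin, a small antimicrobial peptide, and is known for induction by jasmonate. Its signals in FRI flc-3 were 15.7, 22.5 and 13.7 at day 0, 57.9, 55.8 and 70.0 at day 3, 270, 275 and 273 at day 5, and 757, 788 and 815 at day 7. In flc-3 they were 6.34, 12.1 and 12.8, then 74.5, 78.6 and 64.01, then 217, 195 and 203.9, and 350.1, 359 and 341 at day 7. In FRI they were 16.0, 15.2 and 5.87, then 43.0, 40.9 and 36.3, then 157, 155 and 152, and 228, 226 and 231 at day 7. Each sampled day lay above the one before it without overlap in every line, and at day 7 all FRI flc-3 arrays lay above all arrays of the other lines. The log2 change from day 5 to day 7 was 1.48 ± 0.11 (SE, adjusted p = 3.4e-13) in FRI flc-3, 0.73 ± 0.11 (adjusted p = 2.6e-06) in flc-3 and 0.52 ± 0.11 (adjusted p = 0.0027) in FRI. With an offset of 1.62 in place of 16, the adjusted p in FRI was 0.158.

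AT3G28500 encodes a member of the 60S acidic ribosomal protein family. In FRI flc-3 its signals were 149, 112 and 144 at day 0, 239, 211.4 and 265 at day 3, 883, 837 and 880.2 at day 5, and 1444, 1899 and 1895 at day 7. In flc-3 they were 69.7, 67.8 and 67.2, then 219, 221 and 203.8, then 768, 744 and 793, and 1579, 1550 and 1608 at day 7. In FRI they were 67.2, 63.2 and 91.6, then 120.4, 139 and 127, then 193, 210.1 and 238, and 297, 338 and 387 at day 7. At days 5 and 7 every array of both lines with the flc allele lay above every FRI array of the same day. The change from day 5 to day 7 was 0.99 ± 0.11 in FRI flc-3 (adjusted p = 5.7e-09), 1.02 ± 0.11 in flc-3 (adjusted p = 2.1e-09) and 0.63 ± 0.11 in FRI (adjusted p = 0.00018).

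AT4G34400 encodes a B3-domain transcription factor that is known as a target of FLC and of its partner SVP at the shoot apex. Its day 7 signals were 697, 731 and 633 in FRI flc-3, 751, 774 and 716 in the flc-3 line, and 194, 187 and 206.5 in FRI. Its day 5 signals were 443, 437 and 416 in FRI flc-3, 513, 501 and 501 in the flc-3 line, and 143, 161 and 142 in FRI. The day 7 arrays lay above the day 5 arrays in every line, and FRI stayed well below both other lines. The change was 0.65 ± 0.09 in FRI flc-3 (adjusted p = 2.8e-06), 0.55 ± 0.09 in flc-3 (adjusted p = 4.2e-05) and 0.37 ± 0.09 in FRI (adjusted p = 0.024). The call in FRI was lost without FRI day 5 replicate 1 (adjusted p = 0.102) or replicate 3 (adjusted p = 0.092), and without FRI day 7 replicate 1 (adjusted p = 0.068) or replicate 3 (adjusted p = 0.122). JAL23, a jacalin-related lectin, averaged 685 ± 46 at day 7 against 343 ± 16 at day 5 in FRI flc-3, 505 ± 48 against 223 ± 8.3 in flc-3, and 325 ± 9.0 against 247 ± 14 in FRI (SD, n = 3 each). Its change was 0.96 ± 0.08 in FRI flc-3 (adjusted p = 5.4e-11), 1.12 ± 0.08 in flc-3 (adjusted p = 9.1e-13) and 0.37 ± 0.08 in FRI (adjusted p = 0.0075).

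**Figure D2:**
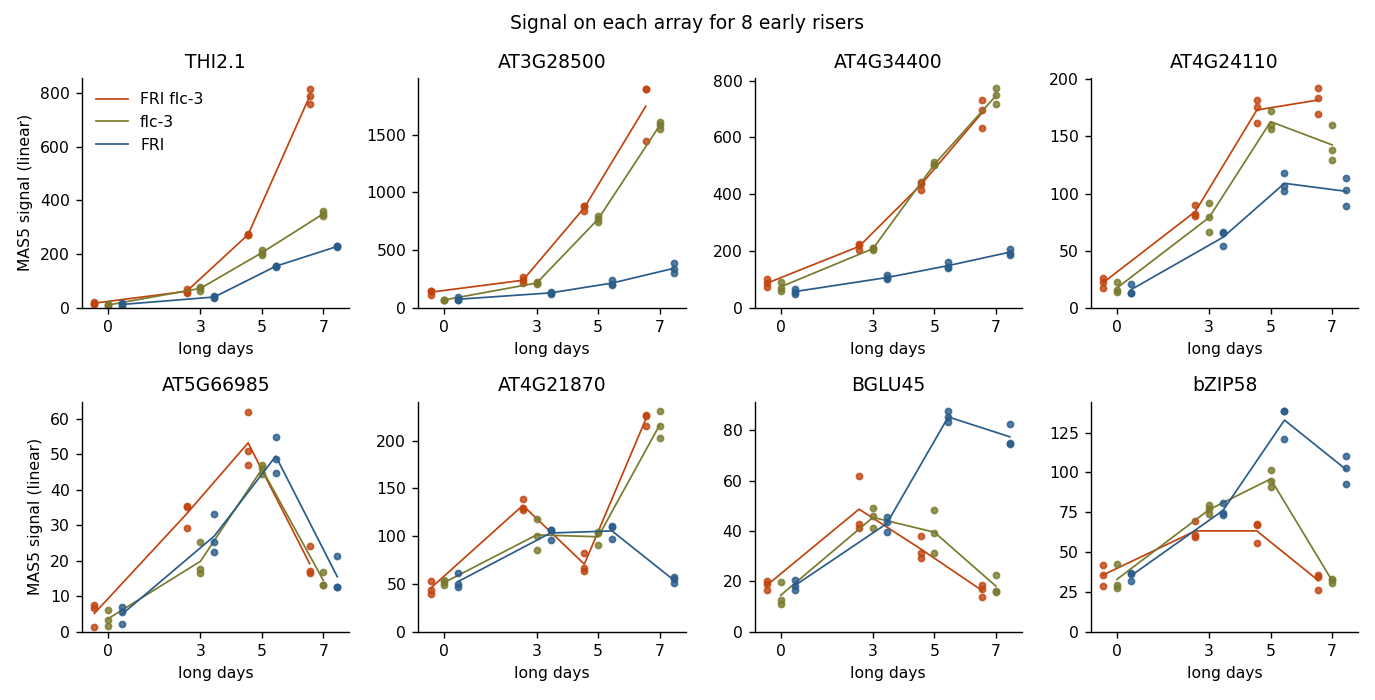
MAS5 signal on a linear scale (y axis) against the number of long days (x axis) for 8 early risers, with a point for each array, shifted sideways by line, and lines through the means of 3 arrays. THI2.1, AT3G28500 and AT4G34400 climb in all lines, AT5G66985 peaks at day 5 in all lines, and BGLU45 and bZIP58 have low day 7 means in FRI flc-3 and flc-3, near those of day 0, where the FRI day 7 means are 77.4 and 102.

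3 members were called lower at day 7 than at day 5 in all 3 lines (4.55% of 66, against 134 of 14912 probe sets, 0.899%): AT5G66985 and the unnamed 247717_at and 263096_at. AT5G66985, a small gene known from low-oxygen responses of Arabidopsis seedlings, had 7.44, 1.15 and 6.71 units at day 0 in FRI flc-3, 35.2, 35.0 and 29.2 at day 3, 46.8, 61.7 and 50.9 at day 5 and 24.0, 17.0 and 16.4 at day 7. In flc-3 its day 7 arrays gave 13.2, 13.2 and 16.7, against 47.0, 46.0 and 44.3 at day 5, and in FRI they gave 21.3, 12.4 and 12.6, against 54.9, 44.7 and 48.6. The 2 days did not overlap in any line, and most day 7 values lay below 22.4, the average 40th percentile. It fell by 0.98 ± 0.13 on the log2 scale in FRI flc-3 (adjusted p = 7.0e-07), by 1.03 ± 0.13 in flc-3 (adjusted p = 2.3e-07) and by 1.06 ± 0.13 in FRI (adjusted p = 1.4e-06).

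AT4G24110 also comes from the genes known for low-oxygen responses, but was not called for a change between days 5 and 7. Its day 7 arrays gave 192, 184 and 170 in FRI flc-3, 138, 130 and 160 in the flc-3 line, and 103, 89.5 and 113 in FRI. At day 5 they gave 182, 162 and 176 in FRI flc-3, 160, 157 and 173 in the flc-3 line, and 102, 107 and 118 in FRI. The 2 days overlapped in all 3 lines, and the log2 changes were 0.07 ± 0.11, -0.18 ± 0.11 and -0.09 ± 0.11 in FRI flc-3, flc-3 and FRI. AT4G33560, named above, fell at day 7 against day 5 by 0.53 ± 0.08 in FRI flc-3 (adjusted p = 7.0e-06) and by 1.17 ± 0.08 in flc-3 (adjusted p = 1.3e-13). Its change of -0.25 ± 0.08 in FRI was not called, and all its day 7 means were still at least 1.47 above day 0.

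Other named members changed in 1 or 2 lines. AT3G15450, which like AT4G27450 encodes an aluminium-induced family protein, had 1347, 1306 and 1402 units at day 7 in FRI flc-3, against 961, 1011 and 938 at day 5. The days did not overlap there, and the change of 0.47 ± 0.10 was called (adjusted p = 0.00045), while 0.14 ± 0.10 in flc-3 and 0.21 ± 0.10 in FRI were not. AT1G68440 had 170, 146 and 146 units at day 7 in FRI flc-3, against 82.9, 113 and 92.9 at day 5, a change of 0.61 ± 0.15 (adjusted p = 0.0032). AT3G03270, a universal stress protein gene, fell by 0.62 ± 0.10 in FRI (adjusted p = 8.2e-05), to 148, 161 and 176 at day 7, against 292, 234 and 250.1 at day 5. Its values of 306, 247 and 355 at day 7 in FRI flc-3 overlapped with 298, 301 and 285 at day 5, and the change of 0.02 ± 0.10 was not called. AT5G19120, an aspartyl protease family gene, was called higher in FRI flc-3 with 0.49 ± 0.09 (adjusted p = 7.2e-05) and in FRI with 0.34 ± 0.09 (adjusted p = 0.022), and the FRI call was lost without FRI day 5 replicate 1 (adjusted p = 0.172) or replicate 3 (adjusted p = 0.067), or without FRI day 7 replicate 2 (adjusted p = 0.132) or replicate 3 (adjusted p = 0.056).

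A list of 42 genes known from low-oxygen responses was put together after the members had been seen, so its counts are a description only. 22 of the 42 were named on the array, 16 were tested and 7 are early risers: AT1G33055, AT3G03270, AT3G27220, a Kelch repeat family gene, AT4G24110, AT4G27450, AT4G33560 and AT5G66985. The median day 3 difference of the 9 tested genes of the list that are not members was 0.16 in FRI flc-3, 0.29 in flc-3 and 0.14 in FRI. Genes below the cut in any line are not members by the rule, so a low median is built in and nothing is read from it. The list did not move as one. PDC2, a pyruvate decarboxylase of ethanol fermentation, averaged 60.6 at day 3 against 139 at day 0 in FRI flc-3, 62.0 against 136 in flc-3, and 57.2 against 153 in FRI. Of the 16, 4 were called lower (25.0%, against 7.52% of all probe sets) and 1 higher (6.25%, against 7.51%) at day 7 against day 5 in FRI flc-3. In flc-3, 8 were called lower (50%, against 5.30%) and 1 higher (6.25%, against 4.61%), and in FRI 2 were called lower (12.5%, against 1.97%). As a mean of days 5 and 7, 10 of the 16 were called higher in FRI flc-3 than in FRI (62.5%, against 12.3%) and 1 lower (6.25%, against 12.8%). Early risers made up 6 of those 10, and 3 of the 4, 5 of the 8 and both of the 2 called lower at day 7. Nothing is thus read from these shares beside those of all probe sets. Some calls were also lost without single arrays. Without flc-3 day 7 replicate 2, the adjusted p in flc-3 was 0.196 for AT1G33055 and 0.221 for AT4G27450. Without FRI flc-3 day 7 replicate 2, that of AT3G27220 in FRI flc-3 was 0.132. AT1G33055 against FRI had 0.084 without FRI day 5 replicate 1.

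Of the 14 lists of pathway genes, 13 held no member, and 11 of the 14 had a tested gene, 42 genes in all. The lists of salicylate defence, cytosolic ribosome and lipid transfer proteins had no gene named on the array, so they could hold no member. The families of the ribosome and lipid transfer lists are still found among the early risers, as AT3G28500 is of a ribosomal protein family and AT5G55450 of a lipid transfer protein family. The jasmonate list held THI2.1 as its only early riser. THI2.2, the other thionin gene, had day 3 values of 48.1 against 131 at day 0 in FRI flc-3, 50.9 against 121 in flc-3 and 68.1 against 160 in FRI, opposite to THI2.1. PDF1.2, a defensin gene induced by jasmonate, was dim throughout (5.37 to 10.0). GI, which links the clock to day length, had a day 3 mean of 66.5 against 148 at day 0 in FRI flc-3, 60.6 against 153 in flc-3 and 64.9 against 140 in FRI.

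By the classes above, 7 members had returned by day 7 in both FRI flc-3 and flc-3 but not in FRI. They were BGLU45, bZIP58 and the unnamed 264348_at, 247717_at, 265948_at, 263096_at and 250665_at. The class takes any level under 0.3 above day 0, so it also holds members that fell past day 0. In FRI flc-3 and flc-3, day 7 minus day 0 was -0.34 and -0.71 for 264348_at and -0.61 and -0.44 for 265948_at. 6 of the 7 were called lower at day 7 against day 5 in both lines, all but 250665_at. Since the class was set by low day 7 values on the same arrays, this count is a description only. BGLU45 encodes a beta-glucosidase that acts on monolignol glucosides, precursors of lignin. In FRI flc-3 it had 20.0, 16.3 and 18.8 units at day 0, 61.8, 42.9 and 41.2 at day 3, 38.2, 29.1 and 31.3 at day 5, and 16.9, 13.5 and 18.5 at day 7. In flc-3 it had 10.9, 12.7 and 19.6, then 45.8, 49.2 and 41.1, then 39.2, 48.2 and 31.0, and 15.9, 22.3 and 15.9 at day 7. In FRI it had 20.3, 17.9 and 16.4, then 45.6, 43.5 and 39.7, then 85.2, 87.6 and 83.1, and 75.2, 82.6 and 74.6 at day 7. The lines overlapped at day 3 and split after it, with FRI above all arrays of the other lines at days 5 and 7. BGLU45 fell by 0.60 ± 0.12 from day 5 to day 7 in FRI flc-3 (adjusted p = 0.00026) and by 0.70 ± 0.12 in flc-3 (adjusted p = 2.6e-05), and its change of -0.12 ± 0.12 in FRI was not called. All its day 0 arrays, and its day 7 arrays in FRI flc-3 and flc-3, lay below 22.4, the average 40th percentile of the arrays. The size of its log2 differences thus depends on the offset of 16.

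The bZIP transcription factor gene bZIP58 had day 7 signals of 35.4, 26.3 and 34.5 in FRI flc-3, 32.5, 30.4 and 32.8 in the flc-3 line, and 92.5, 110.1 and 103 in FRI. Its day 5 signals were 55.7, 67.3 and 66.6 in FRI flc-3, 91.0, 94.8 and 102 in the flc-3 line, and 139, 121 and 139 in FRI. Day 7 lay below day 5 in all lines, and FRI lay above both other lines at both days. The change of -0.72 ± 0.10 in FRI flc-3 (adjusted p = 1.3e-06) and of -1.22 ± 0.10 in flc-3 (adjusted p = 8.8e-12) was called, and that of -0.34 ± 0.10 in FRI was not (adjusted p = 0.065). The unnamed 264348_at dropped further, to 45.1, 49.5 and 55.0 at day 7 in FRI flc-3 against 150.1, 171 and 167 at day 5, and to 36.6, 33.8 and 40.9 in flc-3 against 207.4, 194 and 215. FRI kept 367, 339.9 and 335 at day 7, against 388, 407 and 379 at day 5.

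1 member took the opposite course, returned in FRI and further in the others. AT4G21870 encodes a protein of the HSP20-like chaperone family. Its FRI flc-3 arrays gave 39.3, 43.6 and 53.3 at day 0, 127, 130.0 and 139 at day 3, 63.0, 82.3 and 66.6 at day 5, and 227, 226 and 216 at day 7. In flc-3 they gave 48.4, 51.6 and 54.5, then 86.0, 100.1 and 118, then 104, 103 and 90.8, and 202.6, 216 and 231 at day 7. In FRI they gave 61.2, 46.5 and 49.6, then 96.3, 107 and 107, then 109, 96.7 and 110.3, and 56.7, 55.0 and 50.8 at day 7. FRI flc-3 thus showed a dip at day 5 between 2 high days, while FRI at day 7 lay within its own day 0 range. The change from day 5 to day 7 was 1.47 ± 0.09 in FRI flc-3 (adjusted p = 2.1e-14), 1.01 ± 0.09 in flc-3 (adjusted p = 2.0e-10) and -0.79 ± 0.09 in FRI (adjusted p = 7.5e-07).

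**Figure D3:**
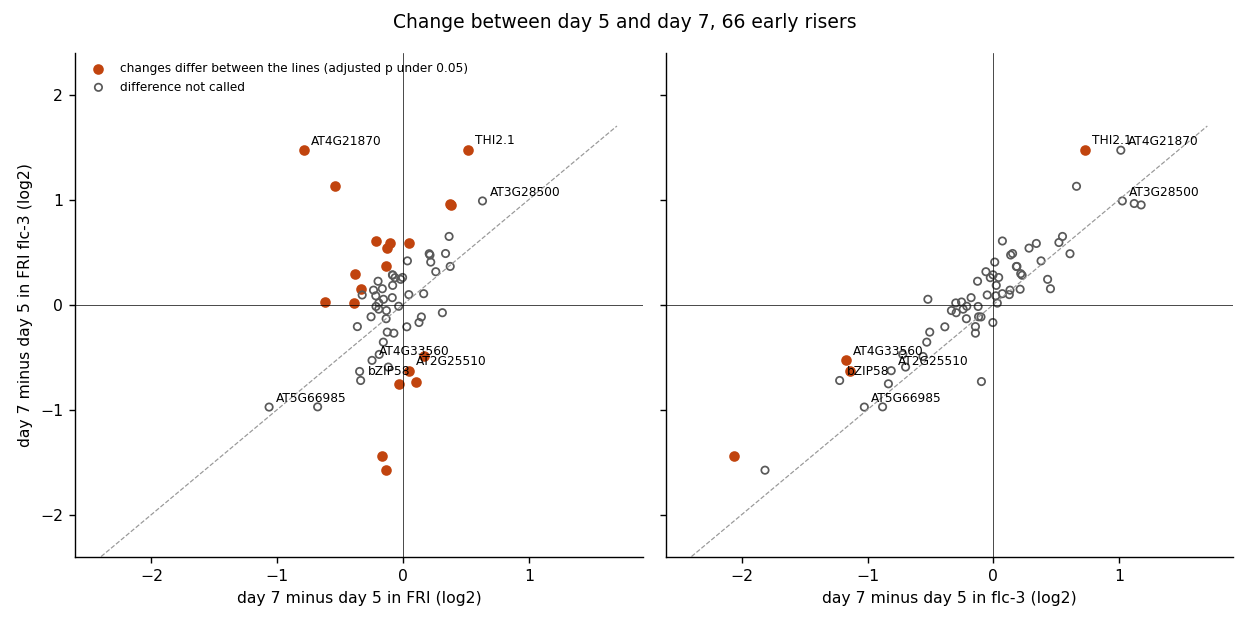
Log2 change from day 5 to day 7 in FRI flc-3 (y axis) against that in FRI (left, x axis) and in flc-3 (right, x axis) for the 66 early risers, where the dashed line marks equal change. Filled points are the members whose changes were called as different between the 2 lines by limma, 20 in the left panel and 4 in the right panel.

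The difference between lines in this change was tested as an interaction. Relative to FRI, the change in FRI flc-3 was called higher for 14 members (21.2% of 66, against 4.33% of all probe sets) and lower for 6 (9.09%, against 3.14%). AT4G21870 differed by 2.26 ± 0.13 (adjusted p = 1.3e-14), THI2.1 by 0.96 ± 0.15 (adjusted p = 2.7e-05) and JAL23 by 0.59 ± 0.12 (adjusted p = 0.0009). AT1G43910, which encodes an AAA-type ATPase, differed by 0.68 ± 0.12 (adjusted p = 0.00024). The lower side held AT2G25510 with -0.67 ± 0.09 (adjusted p = 7.1e-07), AT3G16670, an Ole e 1 family gene, with -0.84 ± 0.18 (adjusted p = 0.0014) and the lipid transfer protein family gene AT5G55450 with -0.66 ± 0.13 (adjusted p = 0.00087). AT2G25510 was the brightest of these, at 1551, 1753 and 1715 at day 7 in FRI flc-3 against 2634, 2668 and 2484 at day 5, and at 2356, 2451 and 2242 at day 7 in FRI against 2294, 2170 and 2376 at day 5. Its FRI flc-3 days did not overlap and its FRI days did.

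Relative to flc-3, the change in FRI flc-3 was called higher for 4 members (6.06% of 66, against 0.550% of all probe sets) and lower for 0 (against 0.228%) by limma. With array weights the counts were 7 (10.6%, against 1.31%) and 1 (1.52%, against 0.764%). At an unadjusted p under 0.05 the counts were 18 and 1. The share of all probe sets at that looser cut is not given here, so nothing is read from these counts. The 4 were THI2.1 with 0.75 ± 0.15 (adjusted p = 0.0054), AT4G33560 with 0.64 ± 0.12 (adjusted p = 0.0018) and the unnamed 264348_at and 263096_at. For THI2.1 the adjusted p was 0.245 with an offset of 1.62. The call of 263096_at was lost in a fit to only the groups compared (adjusted p = 0.054), without FRI flc-3 day 7 replicate 3 (adjusted p = 0.056), and without flc-3 day 7 replicate 1 (adjusted p = 0.051) or replicate 2 (adjusted p = 0.061). The other members have a difference that did not pass the test, which does not show that their changes were alike.

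The level at days 5 and 7 differed between FRI flc-3 and FRI for most members. As a mean of both days, 37 members were called higher in FRI flc-3 (56.1% of 66, against 12.3% of all tested probe sets) and 16 were called lower (24.2%, against 12.8%). The median difference of the members was 0.26, against 0.00 for all probe sets, and single values ran from -1.83 to 2.12. The most raised was AT3G28500 with 2.12 ± 0.07 (adjusted p = 1.8e-22), followed by AT5G47600, another HSP20-like family gene, with 1.66 ± 0.08 (adjusted p = 2.2e-18), AT4G34400 with 1.59 ± 0.07 (adjusted p = 2.8e-20) and THI2.1 with 1.24 ± 0.07 (adjusted p = 1.0e-15). AT5G47600 had 282, 279 and 271 units at day 7 and 144, 137 and 128 at day 5 in FRI flc-3, against 64.3, 61.2 and 55.1 at day 7 and 47.9, 44.1 and 36.0 at day 5 in FRI. The 2 lines did not overlap at either day.

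Some of these differences were present at day 0, where the members had been chosen. AT3G28500 was 0.75 higher in FRI flc-3 than in FRI at day 0 and 2.30 higher at day 7, and AT4G34400 was 0.49 higher at day 0 and 1.73 higher at day 7. The day 0 difference was 0.38 for AT5G47600 and 0.24 for THI2.1, against 1.95 and 1.72 at day 7. The lowest named members relative to FRI were BGLU45 with -1.30 ± 0.08 (adjusted p = 3.8e-15), bZIP58 with -1.10 ± 0.07 (adjusted p = 5.6e-15) and AT2G25510 with -0.15 ± 0.04 (adjusted p = 0.0082). At day 0 BGLU45 and bZIP58 each differed by 0.01 between these lines.

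The class at day 7 and the call between lines went together. All 16 members that went further in FRI flc-3 and flc-3 were called higher in FRI flc-3 than in FRI, and all 7 that returned in both were called lower. Class and call both use the day 7 arrays of FRI flc-3, so this is a description. Among the 16 were AT4G29700, an alkaline phosphatase-like family gene, with 0.65 ± 0.05, and AT3G29970 with 1.06 ± 0.08. Members classed as held in all lines could also differ in level, as AT4G27450, an aluminium-induced protein family gene, which was 0.38 ± 0.07 higher in FRI flc-3 (adjusted p = 1.9e-05).

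**Figure D4:**
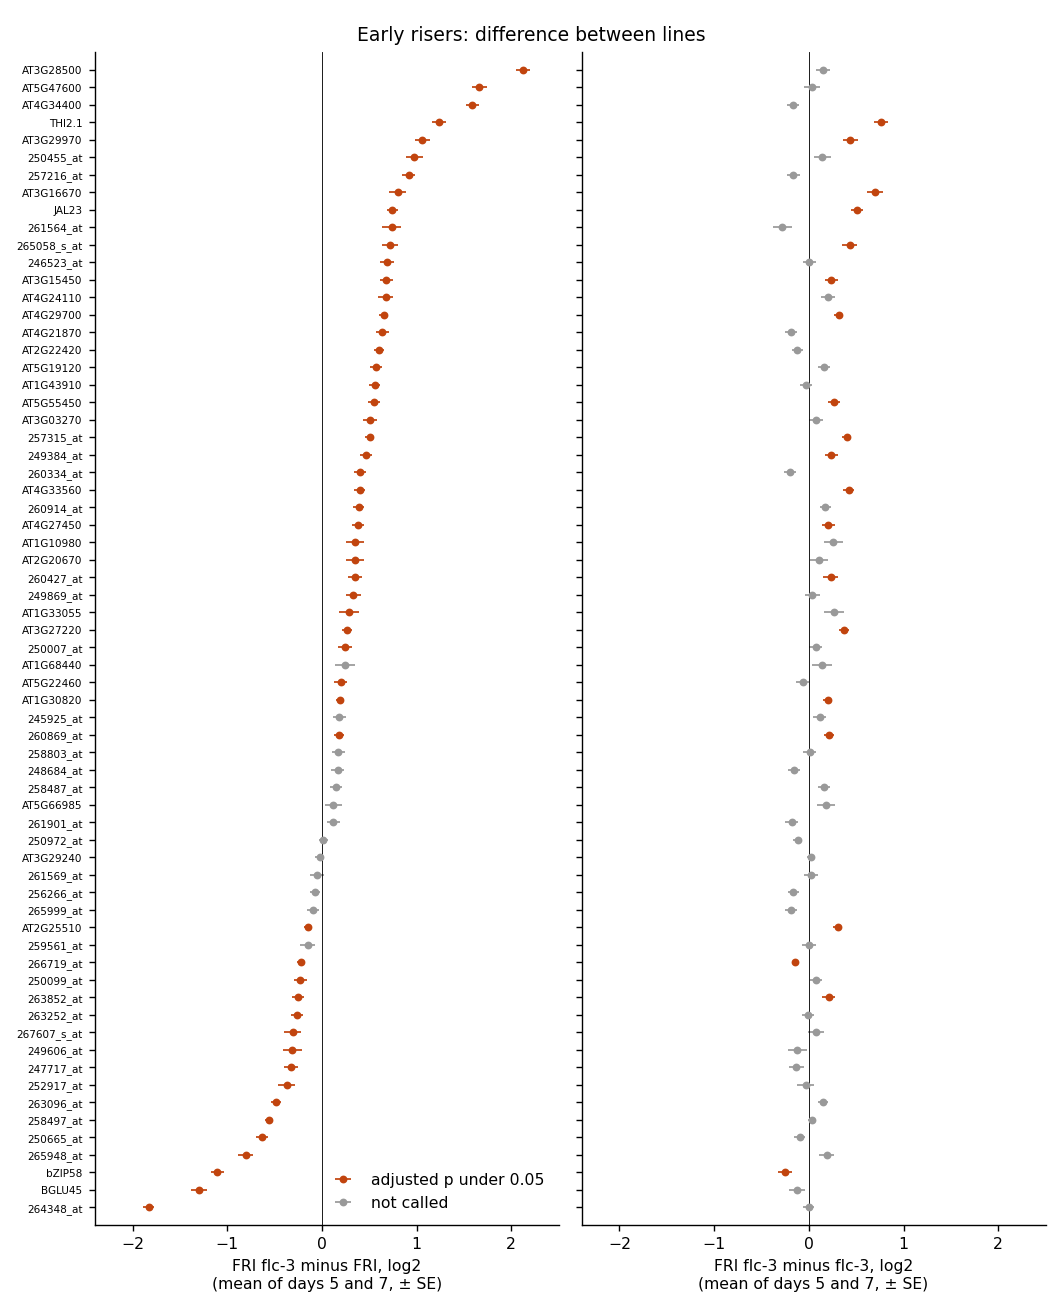
Log2 difference of FRI flc-3 to FRI (left) and to flc-3 (right) as a mean of days 5 and 7 (x axis) for each of the 66 early risers (y axis), with bars for the standard error of the limma fit. Coloured points are called, 37 higher and 16 lower on the left, and 18 higher and 2 lower on the right, where values stay between -0.28 and 0.76. The 2 become 7 with an offset of 64, array weights or a fit to only the groups compared, and 1 with a common 75th percentile.

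Against flc-3, with which it shares the flc allele, FRI flc-3 had fewer members called higher and fewer called lower than against FRI. As a mean of days 5 and 7, 18 members were called higher (27.3%, against 4.48% of all probe sets) and 2 lower (3.03%, against 5.49%), and the median difference was 0.08, against -0.01. The lower count changed with the processing: it was 7 (10.6%) with an offset of 64, array weights or a fit to only the groups compared, against 5.89%, 8.11% and 6.20% of all probe sets, and 1 (1.52%, against 3.75%) after scaling to a common 75th percentile. It was 1 without FRI flc-3 day 5 replicate 1 or flc-3 day 5 replicate 3 and 5 without FRI flc-3 day 5 replicate 2, so nothing is read from its place below or above the share of all probe sets. The same scaling gave 897 of all probe sets higher and 559 lower, in place of 668 and 819. THI2.1 was 0.76 ± 0.07 higher (adjusted p = 7.5e-09), AT3G16670 0.70 ± 0.09 (adjusted p = 9.0e-07) and JAL23 0.51 ± 0.06 (adjusted p = 2.4e-07). AT3G16670 had 44.1, 35.8 and 36.1 units at day 7 and 85.8, 69.7 and 69.5 at day 5 in FRI flc-3, against 29.8, 23.1 and 25.1 at day 7 and 30.3, 28.5 and 27.8 at day 5 in flc-3. The lines did not overlap at either day. The 2 called lower were the unnamed 266719_at and bZIP58 with -0.25 ± 0.07 (adjusted p = 0.021), a call lost without FRI flc-3 day 5 replicate 1 (adjusted p = 0.075), without FRI flc-3 day 7 replicate 2 (adjusted p = 0.079) or without flc-3 day 5 replicate 3 (adjusted p = 0.058). The call of 266719_at was lost with a common 75th percentile (adjusted p = 0.054) and without flc-3 day 5 replicate 3 (adjusted p = 0.0505). Comparisons with FRI and with flc-3 share the FRI flc-3 arrays.

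A marker of another cell type moved with these line differences. Of 21 listed loci of trichomes and epidermis, WSD1, a wax ester synthase of the stem epidermis, TRY and FDH were named, and FDH here is formate dehydrogenase, which shares its symbol with an epidermis gene and is left out. WSD1 had 220.3, 280.1 and 302 units at day 7 in FRI flc-3, 290.2, 238 and 331 in the flc-3 line, and 3.55, 7.89 and 7.91 in FRI. As a mean of days 5 and 7 it was 2.53 higher in FRI flc-3 than in FRI on the log2 scale (adjusted p = 5.3e-22). TRY, a repressor of trichome fate, had 29.9, 31.9 and 48.1 units at day 7 in FRI flc-3, 28.4, 27.8 and 32.4 in the flc-3 line, and 40.1, 31.6 and 23.3 in FRI, and its difference of 0.04 was not called (adjusted p = 0.827). WSD1 thus carried most of the sum at day 7 in FRI flc-3 and flc-3. The summed signal of WSD1 and TRY lay between 250.2 and 350.1 at day 7 in FRI flc-3, between 266 and 364 in flc-3 and between 31.2 and 43.6 in FRI. At day 5 the sums were 66.9 to 83.2, 110.4 to 127 and 30.8 to 38.1, and at day 0 they were 34.0 to 44.5, 26.1 to 35.1 and 20.8 to 30.8. On the FRI arrays WSD1 lay between 3.55 and 15.3, below 22.4, the average 40th percentile of the arrays. The part of a changed share of cell types in the results on the early risers was not tested.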

How the data were processed

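The authors deposited MAS5 signal intensity per probe set, per the submitters' processing notes; version, scaling target and masking are not given in the sources used here. Signals were used as deposited, as log2(signal + 16), without 64 control probe sets. Members and gene lists were chosen with earlier results of these data known. limma 3.58.1 in R 4.3.3 was fitted to 36 arrays with 12 group means (24 residual degrees of freedom), moderated by eBayes along an intensity trend; it was tested on simulated data. Tested were 14912 probe sets that exceeded the 40th percentile of their array on 3 arrays or more; p-values are two-sided and adjusted over all of them in each of 7 comparisons. All 66 members were tested. Named genes were the 12 of largest mean day 3 rise, up to 4 per comparison and direction, list members, those at the cut, and up to 3 per shared class; other names were chosen after their values were seen. Gene names came from the platform annotation and RefSeq loci, with no coordinates used. Alternatives were other offsets, scalings, filters, weights, a replicate block and leaving out each array. The number of arrays limits the precision. Same-numbered replicates did not deviate together (correlations of -0.13 to 0.11 over 21 pairs). Promoter sequences were not analysed here.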

Additional observations from a re-analysis of the deposited data

Results flagged for a closer look

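In 11 named members, all those called, the change from day 5 to day 7 differed between FRI flc-3 and FRI in a test of that difference. The log2 differences, FRI flc-3 minus FRI, were 2.26 for AT4G21870, 0.96 for THI2.1, 0.82 for AT1G68440, 0.68 for AT1G43910, 0.65 for AT3G03270, 0.59 for JAL23, 0.57 for AT5G47600 and 0.54 for AT4G29700. They were -0.84 for AT3G16670, -0.67 for AT2G25510 and -0.66 for AT5G55450. For AT5G47600 the adjusted p of 0.024 became 0.182 with an offset of 1.62, 0.072 without FRI day 5 replicate 1, 0.053 without its replicate 2, 0.068 without FRI day 7 replicate 3 and 0.063 without FRI flc-3 day 5 replicate 3.

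Of the 9 unnamed members called for this difference, the 2 highest were 257216_at with 1.66 and 260914_at with 0.68, and the 2 lowest were 264348_at with -1.27 and 265948_at with -1.44. 257216_at had 207.9, 188 and 226 units at day 7 in FRI flc-3 against 81.9, 84.7 and 91.8 at day 5, and 49.98, 50.9 and 50.2 at day 7 in FRI against 78.4, 75.9 and 87.0 at day 5, so its lines moved in opposite directions without overlap between the days.

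Between FRI flc-3 and flc-3 the change from day 5 to day 7 differed by 0.75 for THI2.1, by 0.64 for AT4G33560 and by 0.62 for 264348_at, FRI flc-3 minus flc-3, and the other unnamed member called, 263096_at, had 0.50. AT4G33560 had 177, 219 and 207.8 units at day 7 in FRI flc-3 against 312, 291 and 289 at day 5, and 121, 115 and 106 at day 7 in flc-3 against 279, 262 and 287 at day 5.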

How the results depend on the processing

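Of 306 repeats of the 18 counts and medians under other settings, 287 stayed within the limits set for them and 19 moved. Of 1735 repeats for members chosen by the naming rule, 1675 kept direction and call, 60 lost the call and none changed direction. The rule found 66 probe sets, 135 with an offset of 1.62 (which held all 66), 22 with an offset of 64, and 64 to 68 without 1 array. Members called lower in FRI flc-3 against flc-3 numbered 2, but 7 with an offset of 64, array weights or only the groups compared, 1 after scaling to a common 75th percentile, 4 with a replicate block, and 1 to 5 without 1 array (1 without FRI flc-3 day 5 replicate 1 or flc-3 day 5 replicate 3, 5 without FRI flc-3 day 5 replicate 2). That scaling gave 897 probe sets higher and 559 lower in this comparison, against 668 and 819. Members called higher at day 7 in FRI numbered 5, and 3 to 5 without 1 array, with 3 without FRI day 5 replicate 1 or FRI day 7 replicate 3. For the change relative to flc-3, array weights gave 7 higher in place of 4, and an offset of 64, array weights or only the groups compared gave 1 lower in place of 0. The median change from day 5 to day 7 was 0.058 with an offset of 64 and 0.072 with the 75th percentile in place of 0.087 in FRI flc-3, and -0.021 with an offset of 64 in place of -0.037 in flc-3. Of 179 called member values, 6 became over 1.5 times larger with an offset of 1.62 and 26 over 1.5 times smaller with 64. The cause of these shifts was not tested.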
